A study of Homo sapiens with 6 samples.

Results

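The genes described here are 9 genes of inflammasomes, pyroptosis and necroptosis, measured in HT-1080 cells, an established human fibrosarcoma line. They were AIM2, IFI16, PYCARD, NLRP1, NOD1, NOD2, GSDMD, MLKL and RIPK3, chosen by symbol with earlier results of these data known. Of the 9, 8 had a row in a table of 17187 genes. RIPK3 had no row and is not analysed here. Wild-type libraries of 2 groups, 3 each, were compared: IFNg 1, 2 and 3, from cells given recombinant interferon gamma at 10 ng/ml for 8 h, and control 1, 2 and 3, from cells given PBS. Interferon gamma (IFNg) is a cytokine of activated T cells and natural killer cells. The comparison asks which RNAs of these tumour cells change with the cytokine, in a study of T cells and ferroptosis. Whether same-group libraries came from separate cultures is not stated in the labels, so p-values measure the spread between these libraries, which may be technical.

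Inflammasomes are cytosolic complexes in which a sensor of microbial or damage signals recruits the adaptor ASC, encoded by PYCARD, and caspase-1. The caspase matures interleukin 1 beta and interleukin 18 and cuts gasdermin D, whose freed end forms membrane pores in the lytic death called pyroptosis. Necroptosis is another lytic death, in which the kinase RIPK3 phosphorylates MLKL, which then damages the plasma membrane. NOD1 and NOD2 detect pieces of bacterial peptidoglycan and signal through the kinase RIPK2 to NF-kB. Several of these genes are known interferon targets.

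Of the named genes 6 were called higher, against 3.27% of all 15546 tested genes. Interferon acts on genes through short DNA elements, so promoter sequences were looked up for the named genes. The RefSeq promoter table (GRCh38.p14) held 8 promoters of 6 of the genes, namely AIM2, IFI16, NOD1, NOD2, MLKL and PYCARD. It held none for GSDMD, which was called higher, nor for NLRP1 or RIPK3. Of the 8, 1 held GAAA, any 2 bases and GAAA on either strand, core letters of the interferon-stimulated response element, and 0 held TTCNNNGAA, those of the gamma-activated site, which reads alike on both strands. The windows ran from 250 bases before to 50 after the start. Among all 35116 promoters of the table, 3.57% held the response element letters and 7.66% those of the gamma-activated site. The match was in AIM2, on the reverse strand, and began 190 bases before the start. The 250 bases before the start are shown for AIM2 and for the 2 listed starts of IFI16, the neighbouring gene of the same family. The AIM2 window lies at chr1:159076767-159077016 on the minus strand, and those of IFI16 at chr1:159008741-159008990 and chr1:159009657-159009906 on the plus strand. Each runs 5′ to 3′ along the gene, and capitals mark the match.
AIM2: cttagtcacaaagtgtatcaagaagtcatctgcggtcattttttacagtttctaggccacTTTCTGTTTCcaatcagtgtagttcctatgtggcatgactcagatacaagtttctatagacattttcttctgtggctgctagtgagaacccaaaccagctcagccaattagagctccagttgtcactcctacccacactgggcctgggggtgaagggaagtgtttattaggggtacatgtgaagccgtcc
IFI16 first start: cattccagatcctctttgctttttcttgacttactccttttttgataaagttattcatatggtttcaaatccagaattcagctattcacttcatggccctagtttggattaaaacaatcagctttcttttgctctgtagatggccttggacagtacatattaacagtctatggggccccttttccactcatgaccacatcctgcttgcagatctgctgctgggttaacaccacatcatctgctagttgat
IFI16 second start: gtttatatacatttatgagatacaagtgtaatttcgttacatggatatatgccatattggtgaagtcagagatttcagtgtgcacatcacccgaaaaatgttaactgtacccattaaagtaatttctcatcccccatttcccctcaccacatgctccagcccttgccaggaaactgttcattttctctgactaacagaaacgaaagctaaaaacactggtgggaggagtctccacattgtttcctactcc
A match is a description of letters and not evidence of binding, and the absence of a match concerns only these windows.

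After IFNg, 6 of the 9 genes were higher (AIM2, IFI16, NOD1, NOD2, GSDMD and MLKL) and 1 was lower (NLRP1). Of the 5 that were higher and had reads in every library, AIM2 had the largest difference, at 21.0 times the control mean (17.1 to 33.1 times with each library left out in turn), followed by IFI16 at 2.83 times, GSDMD at 2.29 times, MLKL at 2.05 times and NOD1 at 1.81 times. NOD2 had at most 26 reads in an IFNg library and 0 in control, and PYCARD was almost unread in both groups. Calls rest on limma (2-sided, Benjamini-Hochberg adjusted p of at most 0.05 over 15546 kept genes). Of those genes 4.32% were called, 3.27% higher and 1.05% lower. All 7 tested genes had groups that did not overlap, against 20% of all kept genes (10.7% with IFNg higher and 9.28% with IFNg lower). Only 7 of the 9 genes passed the filter on low values. NOD2 passed it only through the IFNg libraries, so its direction and lack of overlap were fixed, and it is counted in these figures. The median log2 difference was 1.22 over the 7 tested genes and -0.01 over all kept genes. Because the genes were chosen with earlier results of these data known, these contrasts with all kept genes are a description.

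**Figure D1:**
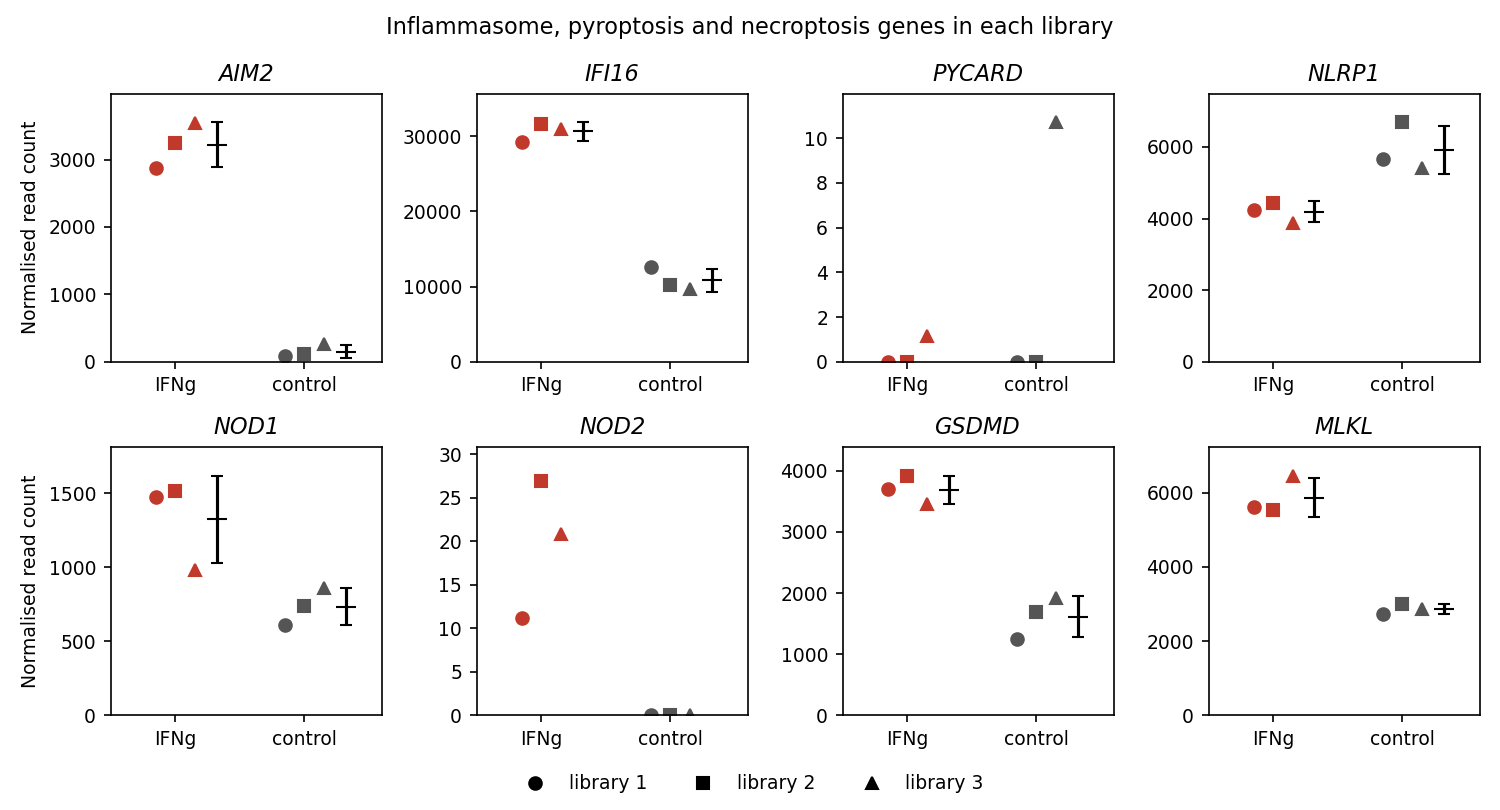
Normalised read count (y axis, linear from 0, a separate scale per gene) in 3 IFNg libraries (red, left) and 3 control libraries (grey, right), with mean and SD as bars except for PYCARD and NOD2, which have libraries at 0. AIM2, IFI16, GSDMD and MLKL are well separated, NOD1 in IFNg 3 (983) lies close to control 3 (857), and PYCARD has reads only in libraries numbered 3.

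Libraries held between 59556948 and 83501954 reads, and 1 read was worth a normalised count of 0.835 to 1.16. Values are not divided by gene length. IFNg 3 stood apart on the second principal component, at -60.66, while the other 5 libraries lay between -24.97 (control 3) and 56.27. Of 8 mesenchymal markers 7 had a row, and their summed count was 737460 to 791099 in IFNg libraries and 823080 to 872321 in control libraries, with VIM at 314888 to 404544 in IFNg and 329093 to 406141 in control. NT5E, at 0 to 74.3, was the exception to their high level. The 4 T and NK cell markers with a row summed to 14.9 to 30.1 in IFNg and 6.43 to 57.6 in control libraries. The 7 myeloid markers summed to 8995 to 14831 in IFNg and 10213 to 15985 in control libraries, nearly all of it CD68, a lysosomal gene. CSF1R, at 138 to 264, and LYZ, at 97.6 to 157, had reads in every library. PTPRC, CD14, ITGAM and SPI1 were between 0 and 44.6. The 1 epithelial marker with a row, KRT5, was at 0 in every library except IFNg 3 (18.5). Of these markers PLAU alone was called, with a log2 difference of -0.53 (limma adjusted p = 0.00709).

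Both DNA sensors of the HIN-200 family rose. AIM2 binds double-stranded DNA in the cytosol and nucleates an inflammasome through ASC. Its normalised read count was 2870, 3245 and 3538 in IFNg 1, 2 and 3, against 83.6, 111 and 266 in control 1, 2 and 3. The lowest IFNg library was thus more than 10 times the highest control library, and control 3 stood above the other controls. Without control 3 the IFNg mean was 33.1 times the control mean. The means were 3218 ± 335 in IFNg and 153 ± 98.2 in control (SD, n = 3 each), a log2 difference of 4.56 ± 0.34 (SE; 95% interval 3.82 to 5.30; limma adjusted p = 3.75e-06). By size of difference AIM2 ranked 15497 of the 15546 kept genes counted from the lowest.

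IFI16, a DNA sensor found mainly in the nucleus, had 29277, 31638 and 30983 in IFNg 1, 2 and 3 and 12580, 10206 and 9720 in control 1, 2 and 3. It was already abundant without IFNg, and all IFNg libraries exceeded all control libraries. Its log2 difference was 1.51 ± 0.10 (95% interval 1.28 to 1.73; limma adjusted p = 1.91e-06). The other family members listed, MNDA and PYHIN1, had no row in the table and are not analysed here. AIM2 and IFI16 are neighbours whose RefSeq spans overlap at their ends, and no source used here says whether reads were counted by strand, so reads of the pair cannot be told apart where they overlap. The AIM2 and IFI16 calls held without each library in turn, with limma adjusted p up to 0.00012.

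NLRP1 moved the other way. It encodes a sensor that carries its own CARD domain and is restrained by the peptidases DPP8 and DPP9. Its counts were 4250, 4446 and 3871 in IFNg 1, 2 and 3, against 5655, 6689 and 5416 in control 1, 2 and 3. Every IFNg library lay below every control library, though by less than a factor of 2 in any pair. The means were 4189 ± 292 in IFNg and 5920 ± 677 in control (SD, n = 3 each), a log2 difference of -0.50 ± 0.11 (95% interval -0.73 to -0.26; limma adjusted p = 0.0238). This call was lost without IFNg 1 (adjusted p = 0.0941), IFNg 2 (0.062), IFNg 3 (0.0911), control 1 (0.0558) or control 2 (0.147), with differences of -0.54 to -0.40, and when the variance trend was left out (0.173). It was kept without control 3 (-0.56, limma adjusted p = 0.00724). The RefSeq span of NLRP1 overlaps LOC101928044, RNU7-31P, LOC124903902 and LOC105371507, and how reads were assigned there is not known.

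PYCARD, the adaptor that links PYD-containing sensors to caspase-1, was close to undetected. It had 0, 0 and 1 read in IFNg 1, 2 and 3 and 0, 0 and 11 reads in control 1, 2 and 3. All 11 control reads were in control 3, and the gene failed the filter on low values. Pooled over libraries the ratio of control to IFNg was 10.1, with a 95% exact binomial interval of 1.47 to 436 that covers counting error only. A count of 0 allows up to 3 reads. Its annotation overlaps the antisense gene PYCARD-AS1, and reads of the pair cannot be told apart unless strand was used in counting.

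NOD1, the sensor of peptidoglycan fragments that carry diaminopimelic acid, had counts of 1474, 1513 and 983 in IFNg 1, 2 and 3 and 606, 734 and 857 in control 1, 2 and 3. IFNg 3 was much lower than the other IFNg libraries and control 3 the highest control, so the groups nearly met in the libraries numbered 3. The log2 difference was 0.84 ± 0.20 (95% interval 0.40 to 1.28; limma adjusted p = 0.0377). The NOD1 call was lost without IFNg 1 (adjusted p = 0.182), IFNg 2 (0.176), control 1 (0.158) or control 2 (0.132), and when the variance trend was left out (0.216). Without both libraries numbered 3 the difference was 1.16 (limma adjusted p = 0.000692).

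NOD2, the sensor of muramyl dipeptide, had 12, 26 and 18 reads in IFNg 1, 2 and 3 and 0 reads in every control library. Its normalised counts were 11.1, 26.9 and 20.9 in IFNg. Against a floor of 3 reads over the control group, NOD2 was at least 20.3-fold higher in IFNg. It passed the filter on low values only through the IFNg libraries, so its direction was fixed. The p-values of NOD2 are therefore a description and no independent test of a rise. NOD2 passed in limma (adjusted p = 0.0366) but not with edgeR's quasi-likelihood test on the recovered reads (adjusted p = 0.0551), and DESeq2 on the same reads called it (adjusted p = 0.00463). The limma call was lost without any single library except control 3 (adjusted p of 0.0751 to 0.198), without both libraries numbered 3 (0.0863), with a pseudocount of 0.1 (0.0593) or 10 (0.0519), and with a filter of at least 10 in at least 3 libraries (0.132). At these few reads the size of the difference depends on the pseudocount, and the fitted log2 value is not a bound. The annotation of NOD2 overlaps CYLD-AS1, and reads of the pair cannot be told apart where they overlap unless strand was used in counting.

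GSDMD encodes the pore former that inflammatory caspases cut in pyroptosis. Its counts were 3700, 3921 and 3462 in IFNg 1, 2 and 3, against 1243, 1685 and 1915 in control 1, 2 and 3. The groups were separated by a wide gap, with more relative spread among controls than among IFNg libraries. The means were 3694 ± 229 in IFNg and 1614 ± 342 in control (SD, n = 3 each), a log2 difference of 1.22 ± 0.15 (95% interval 0.88 to 1.55; limma adjusted p = 0.000412). The RefSeq span of GSDMD overlaps LOC100310756, and how reads were assigned there is not known.

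MLKL encodes the executioner of necroptosis. It had counts of 5625, 5521 and 6464 in IFNg 1, 2 and 3 and 2732, 3008 and 2869 in control 1, 2 and 3. Controls were tightly grouped and every IFNg library was well above them. The means were 5870 ± 517 in IFNg and 2869 ± 138 in control (SD, n = 3 each), a log2 difference of 1.03 ± 0.10 (95% interval 0.80 to 1.26; limma adjusted p = 5.84e-05). Without each library in turn the differences were 1.04 to 1.35 for GSDMD and 0.96 to 1.07 for MLKL, and both stayed called (limma adjusted p up to 0.00505).

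**Figure D2:**
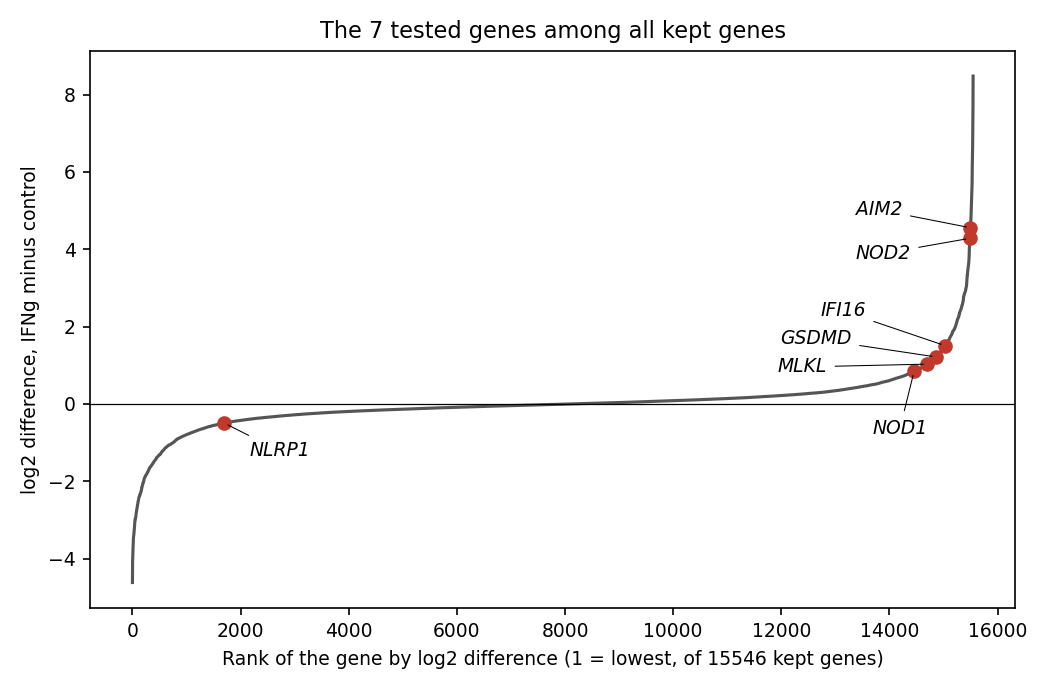
Log2 difference, IFNg minus control, of all 15546 kept genes (y axis) by rank from the lowest (x axis), with the 7 tested genes as red points. AIM2 (rank 15497) and NOD2 (15487) sit on the steep upper end, IFI16, GSDMD, MLKL and NOD1 on its shoulder between ranks 14454 and 15028, and NLRP1 (rank 1698) on the lower shoulder.

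Set per length, the order of the genes differed between the groups. Mean counts were divided by the merged exon length in GENCODE release 29, an annotation other than the one behind the files. Merged length covers the exons of all listed transcripts of a gene, and the order between genes may depend on that choice. In IFNg, IFI16 stood at 5786 ± 230 normalised counts per kb, AIM2 at 1602 ± 167, MLKL at 1031 ± 90.8, GSDMD at 722 ± 44.8, NLRP1 at 327 ± 22.8 and NOD1 at 194 ± 43.3 (SD, n = 3). In control, IFI16 stood at 2047 ± 289, MLKL at 504 ± 24.3, NLRP1 at 462 ± 52.8, GSDMD at 315 ± 66.8, NOD1 at 107 ± 18.3 and AIM2 at 76.4 ± 48.9 (SD, n = 3). AIM2 was thus second in IFNg and sixth in control. Neighbours in the control order that did not differ beyond their spread were MLKL with NLRP1 and NOD1 with AIM2, while the library ranges of neighbours in the IFNg order did not overlap. NOD2 and PYCARD were lowest in both groups.

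The other genes of these pathways were taken from lists of 111 genes, of which 97 had a row and 90 were tested. Of the 90, 13 were higher and 1 was lower, with a median log2 difference of 0.10 against -0.01 over all kept genes. Over all kept genes 3.27% were called higher and 1.05% lower, and the counts of each list below stand beside these shares. The lists, too, were chosen with earlier results of these data known. In bulk RNA, a change in the share of cells that express a gene and a change per cell cannot be told apart.

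Among 24 further inflammasome sensors and adaptors, 14 were tested, 1 rose and 0 fell (median 0.03). The one that rose was NLRP3, the sensor of potassium efflux and membrane damage, with counts of 6260, 6293 and 5401 in IFNg 1, 2 and 3 and 1981, 2481 and 2001 in control 1, 2 and 3. Its log2 difference was 1.48 ± 0.12 (limma adjusted p = 8.27e-06). The CARD-containing sensor CARD8 was 1646 ± 165 in IFNg and 1910 ± 222 in control, with an interval of the log2 difference of -0.51 to 0.09. MEFV, which encodes pyrin, was at 44.4 ± 16.7 in IFNg and 72.1 ± 13.6 in control and did not pass (limma adjusted p = 0.523). NLRC4, a sensor that works with NAIP proteins, had 0 reads in IFNg and 16 in control, all in control 1. Of 5 tested genes among the other NLR genes, NLRC5 and CIITA rose, the transactivators of MHC class I and class II genes. Their log2 differences were 3.51 and 5.06. The list median of 1.46 was the value of NLRP5, which was not called (limma adjusted p = 0.719). NLRP5 had 0, 18 and 8 reads in IFNg 1, 2 and 3 and 8, 0 and 0 in control 1, 2 and 3. NLRC3 (-0.99) and NLRX1 (-0.24) were lower without being called.

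Among inflammatory caspases and IL-1 family genes, 10 were tested, 4 rose and 0 fell (median 0.75). CASP1, the caspase of canonical inflammasomes, had counts of 2013, 1640 and 1555 in IFNg 1, 2 and 3 and 247, 260 and 209 in control 1, 2 and 3 (log2 difference 2.85 ± 0.19; limma adjusted p = 1.25e-06). CASP4, which binds cytosolic lipopolysaccharide, rose by 1.03 ± 0.16 on the log2 scale (limma adjusted p = 0.0018, but 0.11 when the variance trend was left out). IL18BP, the soluble antagonist of interleukin 18, rose by 3.46 ± 0.14. IL33, an alarmin, differed by 1.94 ± 0.40 (limma adjusted p = 0.0147), a call lost without IFNg 1, IFNg 2, IFNg 3 or control 1 (adjusted p of 0.0512 to 0.073) and when the variance trend was left out (0.0916).

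The cytokines that caspase-1 matures did not pass over all 6 libraries without a replicate block. IL1B had counts of 26772, 27952 and 9764 in IFNg 1, 2 and 3 and 44483, 45264 and 14665 in control 1, 2 and 3. The libraries numbered 3 were low in both groups and made the groups overlap. The IL1B log2 difference was -0.67 ± 0.43 (limma adjusted p = 0.526), and without both libraries numbered 3 it was -0.71 (adjusted p = 8.6e-06). It was -1.21 without control 3 (limma adjusted p = 0.0383) and -0.18 without IFNg 3 (0.912). Within each replicate number control was above IFNg, and limma with a replicate block called IL1B lower. IL1A, singled out after its values were seen, showed the same layout, with 692, 746 and 328 in IFNg and 2250, 1859 and 618 in control, and a difference of -1.31 over all libraries (limma adjusted p = 0.139). IL1A was called lower without control 3 (-1.88, limma adjusted p = 0.00129) and without both libraries numbered 3 (-1.51, limma adjusted p = 4.06e-05). It was also called lower with a replicate block. IL18 had at most 8 reads in any library.

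**Figure D3:**
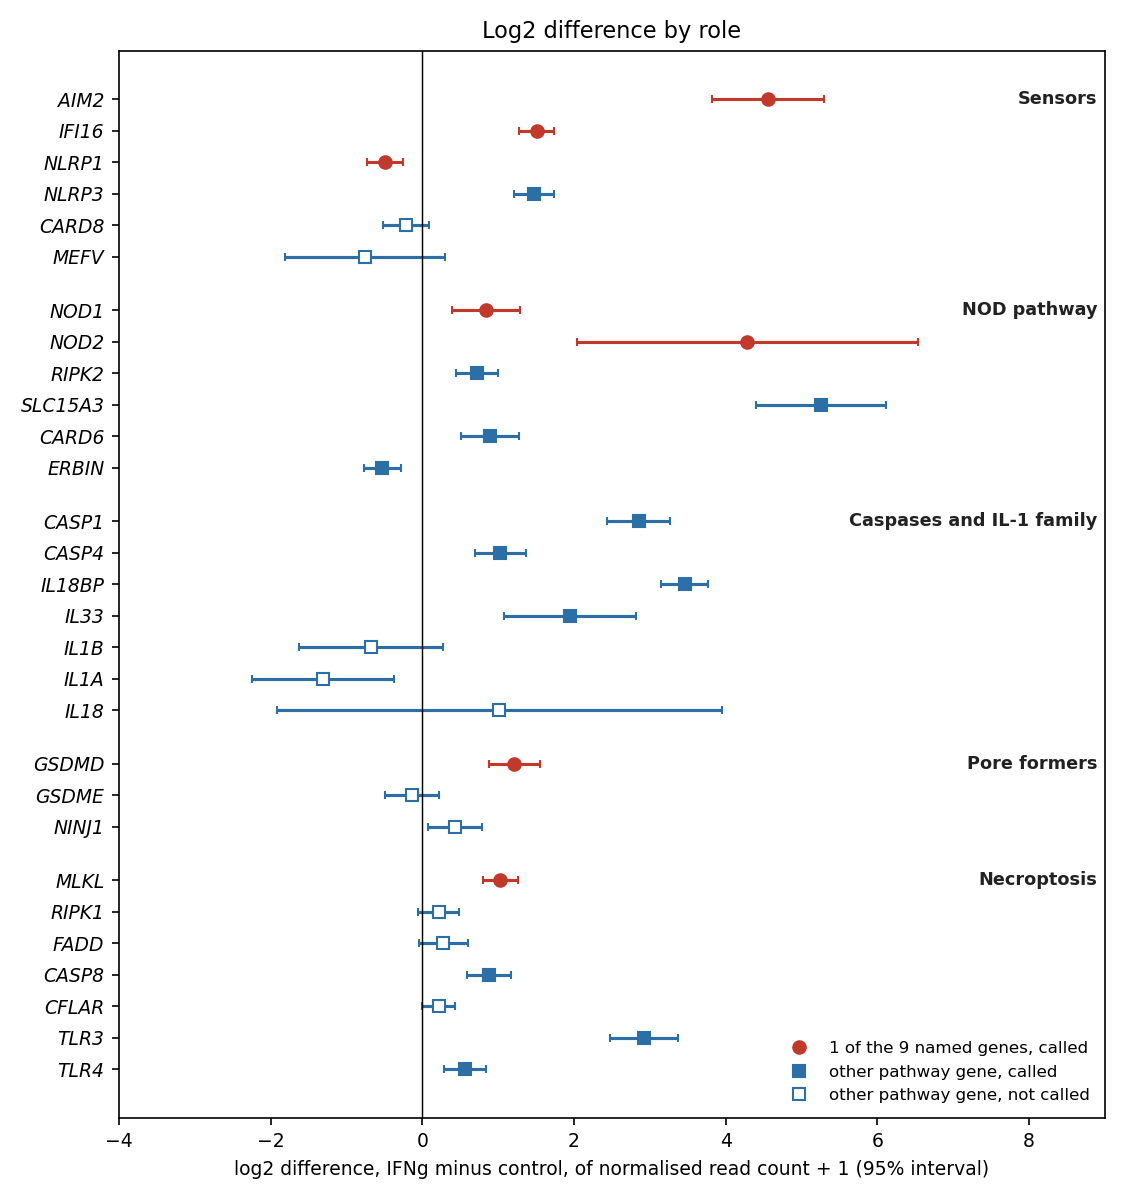
Log2 difference, IFNg minus control, of the normalised read count plus 1 (x axis) with its 95% interval from limma, for the 7 tested genes (red circles) and other pathway genes (blue squares), grouped by role (y axis); filled symbols are called at an adjusted p of 0.05. CASP1 (2.85), TLR3 (2.92) and SLC15A3 (5.26) lie far right among the other pathway genes, while GSDME, RIPK1, FADD and CFLAR lie near 0.

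Of 9 further gasdermin and membrane rupture genes, all tested, 0 were called by limma, 1 had an unadjusted p under 0.05 in limma, and edgeR and DESeq2 each called 0 (median log2 difference -0.09). GSDME, the gasdermin cut by caspase-3, was 5215 ± 981 in IFNg and 5748 ± 1105 in control (interval of the log2 difference -0.50 to 0.22). NINJ1, which ruptures the membrane at the end of lytic death, was 1438 ± 113 in IFNg and 1073 ± 198 in control (0.44 ± 0.16; limma adjusted p = 0.209). NINJ1 was called without control 3 (limma adjusted p = 0.0454) and without both libraries numbered 3 (0.0242).

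Among 34 partners of necroptosis, 33 were tested, 3 rose and 0 fell (median 0.12). TLR3, an endosomal receptor for double-stranded RNA that can trigger necroptosis, had counts of 1273, 1214 and 1331 in IFNg 1, 2 and 3 and 147, 163 and 195 in control 1, 2 and 3 (log2 difference 2.92 ± 0.20; limma adjusted p = 2.14e-06). CASP8, the caspase that restrains necroptosis, rose by 0.88 ± 0.13 (adjusted p = 0.00177). TLR4 differed by 0.56 ± 0.13 (limma adjusted p = 0.0275), a call lost without IFNg 1, IFNg 3, control 1 or control 2 (adjusted p of 0.114 to 0.144) and when the variance trend was left out (0.219). The kinase RIPK1 was 2621 ± 227 in IFNg and 2254 ± 220 in control (interval of the log2 difference -0.05 to 0.49), the adaptor FADD differed by 0.28 ± 0.15 and the caspase-8 inhibitor CFLAR by 0.22 ± 0.10, and none of the 3 passed. ZBP1, a sensor of Z-form nucleic acids upstream of RIPK3, had 3 reads in IFNg and 3 in control.

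Of 28 genes of NOD signalling, 27 were tested, 3 rose and 1 fell (median 0.07). RIPK2, the kinase that both NOD proteins use, had counts of 5101, 5134 and 4595 in IFNg 1, 2 and 3 and 3289, 3301 and 2467 in control 1, 2 and 3 (log2 difference 0.72 ± 0.13; limma adjusted p = 0.00552, and 0.115 when the variance trend was left out). SLC15A3, a lysosomal transporter of histidine and peptides, had 471, 548 and 542 in IFNg 1, 2 and 3 and 9.64, 12.5 and 16.5 in control 1, 2 and 3. Its mean was 520 in IFNg and 12.9 in control. CARD6, a CARD protein, rose by 0.90 ± 0.18 (limma adjusted p = 0.0111), a call lost without IFNg 1 (0.0637) or IFNg 3 (0.0504). The gene that fell was ERBIN, whose product binds NOD2, at 10118 ± 488 in IFNg and 14683 ± 2286 in control. Its call (-0.53 ± 0.11; limma adjusted p = 0.0207) held when control 3 was left out but not when any other single library was (adjusted p of 0.0617 to 0.118), and was lost when the variance trend was left out (0.217).

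**Figure D4:**
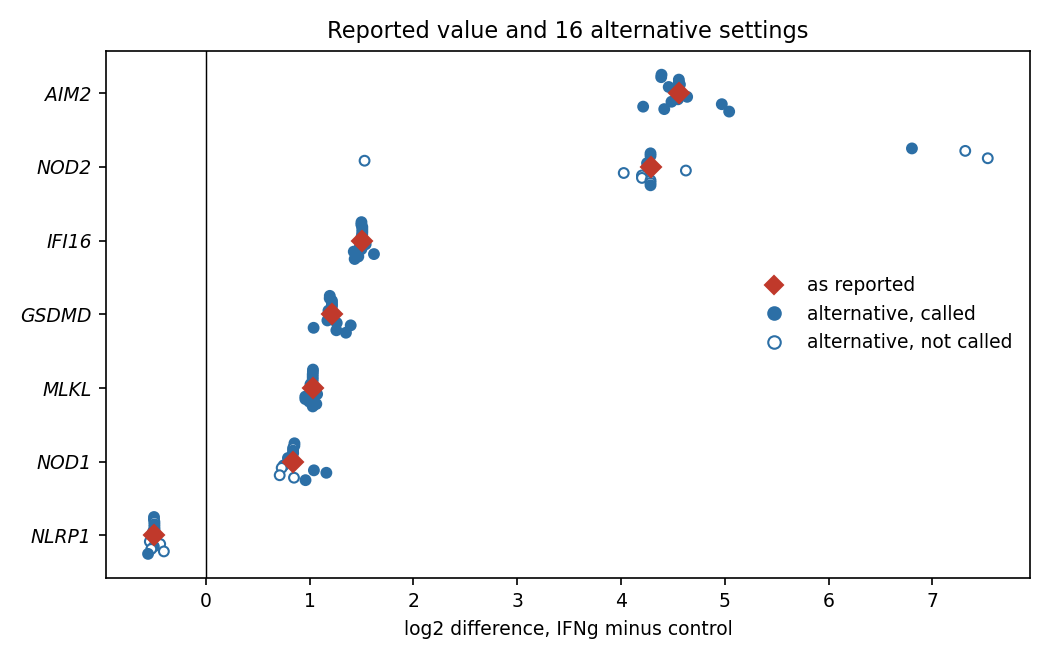
Log2 difference, IFNg minus control (x axis), of the 7 tested genes (y axis) as reported (red diamond) and under 16 alternative settings (circles, filled where called). AIM2, IFI16, GSDMD and MLKL were called in all 16, NOD1 in 11, NLRP1 in 10 and NOD2 in 6, and no value changed sign.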

How the data were processed

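The 6 HT-1080 libraries were sequenced as paired ends after DNase treatment, removal of ribosomal RNA and a stranded kit, per the labels' protocols. Tools listed without a role in the submitters' processing notes are Cuffdiff 2.2.1, Cufflinks, TopHat2 2.0.13 and FastQC 0.11.3, and the builds are hg19 and GRCh37. No source used here names the counter or its use of strand. The deposited values are a signal: whole reads divided by 1 size factor per library (100% of positive values, within 0.001 reads). The factors equal median-of-ratios factors. The deposited table is named RPKM, but no length was divided out.

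A gene was kept if 3 or more libraries reached 0.5 (15546 kept, 1641 removed). limma 3.58.1 in R 4.3.3 was fitted to log2(value + 1) with group as its single term and a trend in the variance prior. Fold changes on that scale understate low genes. edgeR 4.0.16 and DESeq2 1.42.0 were run on the recovered reads. All 3 tools were tested on simulated data. No library duplicated another: within a group, chi-square over genes was 15.8 to 116 per degree of freedom. All members, genes called in the lists and a fixed set of defining genes are named. Members and lists were chosen with earlier results of these data known.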

Additional observations from a re-analysis of the deposited data

How the results depend on the processing

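The direction of all 7 tested genes was the same in all 16 alternatives run, which for NOD2 could not be otherwise. AIM2, IFI16, GSDMD and MLKL were called in each, with adjusted p up to 0.0476 (GSDMD, limma without a variance trend). That setting gave 279 genes higher and 41 lower over all genes, 0 of the 9 genes lower and 0 pathway genes lower. Leaving out 1 library gave 330 to 847 genes higher and 37 to 455 lower, 0 to 1 of the 9 genes lower and 0 to 5 pathway genes lower. Without both libraries numbered 3 there were 882 higher and 599 lower over all genes, with 5 pathway genes lower. On the recovered reads edgeR called 482 genes higher and 169 lower, and DESeq2 called 714 higher and 342 lower, 2 of the lower ones in the pathway lists. Libraries were not paired by replicate number in the reported fit. Deviations of same-numbered libraries correlated at 0.04, 0.02 and 0.11 over genes. The 0.11 was of IFNg 3 with control 3, the highest of any IFNg and control pair. Other pairs with a library numbered 3 were at -0.07 to -0.04. Deviations were taken from each group's own mean, so these correlations are tied to each other and are not separate observations. Libraries correlated best with their own number only for IFNg 1, IFNg 3, control 1 and control 3. With a replicate block 915 genes were higher and 549 lower, with 4 pathway genes lower, and all 7 tested genes were called. The replicate block called 19 pathway genes higher, against 13 as reported. Genes it called that were not called as reported included IL1B (adjusted p = 1.08e-07), IL1A (4.75e-06), CYLD (0.00566), RNF31 and TNFRSF1A. The cause of these shifts was not tested. The 250 bases before the start alone held the response element letters in 3.02% and TTCNNNGAA in 6.57% of promoters. Identity between proteins was not run. A few reads limit NOD2 and PYCARD.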

Other observations

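Genes next to the 7 tested genes on the chromosome, by RefSeq order, were looked up where the table had them. NOD1 lies between ZNRF2, which differed by 0.70 ± 0.19 on the log2 scale without passing (limma adjusted p = 0.0609), and GGCT (0.09 ± 0.13, adjusted p = 0.818). NOD2 lies beside CYLD, a deubiquitinase gene that also belongs to the necroptosis list, with 4722 ± 250 in IFNg and 3464 ± 572 in control (0.46 ± 0.13, limma adjusted p = 0.0699). CYLD was called by DESeq2 (adjusted p = 0.0224) and in limma without control 1 (0.0354). GSDMD lies between ZC3H3 (0.27 ± 0.15) and MROH6 (0.83 ± 0.37), and MLKL beside RFWD3 (0.40 ± 0.19), none of which passed in limma (adjusted p of 0.306 to 0.466). AIM2 and IFI16 are each other's neighbour and both rose. CADM3, on the other side of AIM2, differed by -1.48 ± 1.41 and WSCD1, beside NLRP1, by -2.13 ± 1.20. Neither passed (limma adjusted p = 0.698 and 0.457), and counts were at most 9.73 for CADM3 and 43.4 for WSCD1. FA2H, on the other side of MLKL, was at 0 in IFNg and at most 6.43 in control, and was not tested.

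Genes whose log2 levels ran most alike over the 6 libraries are given as a description. Any pair of strongly changed genes correlates across 2 groups. The closest genes were also picked from all those with a mean of at least 100, over only 6 libraries. For AIM2 these were SLC26A4, IRF1 and MSRB1 (Pearson r of 0.9996, 0.997 and 0.996), and 293 of 11700 genes with a mean of at least 100 reached 0.95. For IFI16 they were DDX60L, HLA-DRA and IFIH1 (0.999, 0.998 and 0.997). NLRP1 ran most like CROCCP2, LAMB3 and AFAP1 (0.995, 0.994 and 0.992), and NOD1 most like BRD2, ADCY9 and TMEM243 (0.995, 0.986 and 0.985). For NOD2 the closest were TRIM14, RALA and CCDC125 (0.999, 0.997 and 0.997), for GSDMD ZNF618, USF1 and DESI1 (0.998, 0.995 and 0.994), and for MLKL LRRTM2, PVR and BMPR1B (0.9998, 0.999 and 0.998). An r of at least 0.95 was reached by as few as 61 genes for NOD1 and as many as 302 for IFI16. Among the genes listed here, CROCCP2, BRD2, ADCY9, TMEM243 and BMPR1B were not called (limma adjusted p of 0.086 to 0.311).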
